A study of Canis lupus familiaris with 24 samples.

Results

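The genes described are splicing factors and heterogeneous nuclear ribonucleoproteins (hnRNP proteins). They were chosen by name: a probe set belongs when its only gene symbol starts with HNRNP, SRSF, SNRP, SF3A, SF3B, U2AF or PRPF. This gave 123 of the 22283 probe sets of the array, for 57 genes, after 1 pseudogene probe set was left out together with 19 probe sets whose annotation joins several symbols. A probe set was tested when the deposited detection call was Present on at least 6 of the 24 arrays, and 118 of the 123 were, for 56 genes. The other 5, 1 each of HNRNPD, SF3A2, SF3B2, SRSF8 and PRPF31, were called Present on 0 arrays, and SF3B2 therefore has no value here. By role the tested members were 47 probe sets of 18 hnRNP genes, 25 of 9 SR protein genes, 16 of 11 genes of small nuclear ribonucleoprotein (snRNP) proteins, 13 of 7 SF3A and SF3B genes, 4 of 2 U2AF genes and 13 of 9 PRPF genes.

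Splicing removes introns from new transcripts and is carried out by the spliceosome, which assembles from small nuclear RNAs, their bound proteins and many further factors. SR proteins bind exons and recruit the machinery to nearby splice sites, while hnRNP proteins coat nascent transcripts and often oppose exon use. Most of these genes are active in every cell type.

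The tissue came from 3 mongrel dogs, all under pentobarbital and pancuronium. The left lung had been lavaged with warmed saline, 20 ml/kg on each of 4 occasions, and is called injured; the right lung, called control, was not lavaged. Both lungs were then ventilated for 5 h at 25 breaths/min, and 5 cmH2O of positive end-expiratory pressure was added on the control side alone, so that lavage, body side and pressure cannot be told apart. Pieces from the apex and the base, in the dependent (gravitationally lower) and the nondependent part, made 8 groups of 3 arrays, 1 array for each dog, and the middle of the base was not analysed here.

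Dog RNA was hybridised to a human array, so the signal of a probe set depends on how well human probes match the dog transcript. Levels of different genes are therefore not compared. The brightest probe set of a gene was picked by level, and the signals of a marker list were summed. Both depend on that match too. Lung markers were found: 5 of 6 markers of alveolar type 2 cells and 7 of 7 of type 1 cells were tested, and leukocyte, endothelial, smooth muscle and red cell markers were also detected. The share called Present on an array lay between 60.78 and 82.32% for all probe sets and between 73.17 and 92.68% for the members. Of the 8 arrays of dog 3, 3 stood apart, all from its injured lung (both apical sites and the base dependent one), with the highest signals of the series. On those 3 arrays the members lay at a median of -0.26 (log2) against the dog's other 5 arrays, while all tested probe sets lay at 0.12. The other 5 include every control array of dog 3, so an array offset and the lung difference of this dog cannot be told apart. Counts and medians that moved when these arrays were left out are given both ways. Without them the injured readings at both apical sites and at the base dependent site come from dogs 1 and 2 alone.

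The first question was which splicing genes the lavaged side expressed at another level when the 4 sites of a lung were averaged. HNRNPAB, an RNA-binding hnRNP protein also known to bind single-stranded DNA, rose 2.49-fold in the injured lung, and it was the one member to pass the test. No other member passed, but the members leaned towards the injured lung: 83 of 118 had a change above 0, against 54.7% of all tested probe sets, with a median log2 change of 0.11 against 0.03. In dogs 1, 2 and 3 the member median was 0.18, 0.28 and -0.02, against 0.00, 0.02 and 0.07 for all. Dog 3 did not share the lean. Without the 3 arrays of dog 3 that stood apart, and likewise without dog 3, the member median was 0.21 against 0.01, and without dog 1 or dog 2 it was 0.08. Among hnRNP proteins 34 of 47 were above 0, among SR proteins 20 of 25, among snRNP proteins 11 of 16, in SF3A and SF3B 8 of 13, in U2AF 3 of 4 and among PRPF factors 7 of 13. The test was limma on log2 signal with the dog as a block, adjusted over all 20034 tested probe sets with a threshold of 0.05. It called 0.135% of all probe sets higher in the injured lung and 0.0749% lower, and 1 and 0 of the 118 members.

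The second question was whether the difference held at each site. At the base nondependent site 5 members rose, namely HNRNPAB, HNRNPC, SRSF1, SRSF7 and U2AF1, between 2.48-fold and 4.22-fold, and no member fell. The array-wide share called higher there was 0.369%, and the share called lower was 0.0349%. At the 2 apical sites and the base dependent one limma called 0 members and 0 of all probe sets. The heat map of member genes by site and dog shows the base nondependent columns red for most hnRNP and SR genes in 3 dogs, and mixed colours at the apex.

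**Figure D1:**
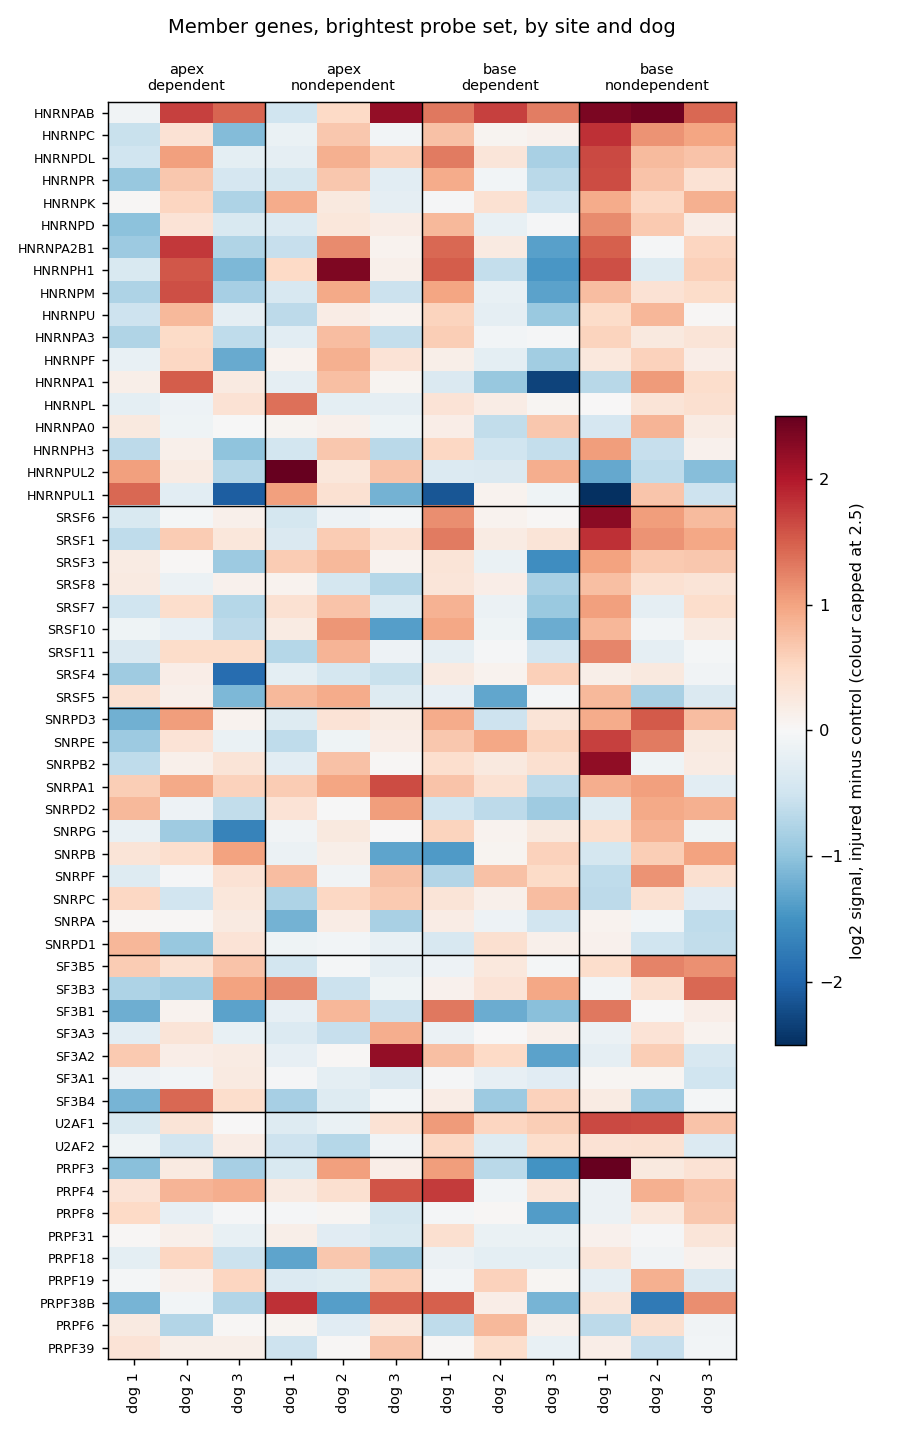
Log2 signal of the injured minus the control lung for the brightest tested probe set of each of the 56 member genes, in each dog (columns) at each site; rows are grouped by role and, within a role, ordered by the change at the base nondependent site. HNRNPAB lies above 0 in 3 of 3 dogs at both base sites, and at the base nondependent site 44 of the 56 genes have a change above 0. Of all tested probe sets 42% do.

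HNRNPAB had 1 probe set. At the base nondependent site its log2 signal in dogs 1, 2 and 3 was 9.28, 9.50 and 9.28 in the injured lung and 6.92, 7.06 and 7.84 in the control lung. The groups did not overlap, and the change was 2.08 ± 0.40 (SE of the limma fit), a 4.22-fold rise with a limma adjusted p of 0.0194. Each SE of a change given here is that of the fit, which pools the spread over all 24 arrays. It is not the spread of the 3 dogs at a site. At the base dependent site the injured lung read 8.82, 9.23 and 9.0 and the control lung 7.50, 7.53 and 7.72, again apart, with a change of 1.43 ± 0.40 that did not pass (adjusted p = 0.587). At the apex the dogs differed: the apex dependent readings were 7.30, 9.05 and 9.55 in the injured and 7.39, 7.34 and 8.09 in the control lung, so that dog 1 was not higher in the injured lung. The apex nondependent readings were 7.26, 7.79 and 9.30 against 7.75, 7.29 and 7.11, with dog 1 lower in the injured lung. Dog 3, high at both apical sites, is the dog whose injured apical arrays stood apart.

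Over the 12 arrays of a lung HNRNPAB ran from 7.26 to 9.55 with a median of 9.14 in the injured lung, and from 6.92 to 8.09 with a median of 7.45 in the control lung. The ranges overlapped through the apical pieces. Over the 4 sites its mean log2 signal was 8.78 ± 0.57 (SD, n = 3 dogs) in the injured lung and 7.46 ± 0.20 in the control lung. The change was 1.32 ± 0.20 (SE), with 0.77, 1.59 and 1.59 in the 3 dogs and a limma adjusted p of 0.00703. Without the 3 arrays that stood apart it was 1.12, with an adjusted p of 0.0216. Without dog 2 it was 1.18 with an adjusted p of 0.47, and on means per dog, where the 3 dogs are the units, the adjusted p was 0.0901. Over all 13 alternatives the change lay between 1.12 and 1.59 and the adjusted p between 0.00265 and 0.47.

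HNRNPC, which binds uridine tracts and packages nascent transcripts, rose at the base nondependent site. Its brightest probe set read 10.88, 10.78 and 11.01 in the injured lung of dogs 1 to 3 and 9.06, 9.66 and 10.02 in the control lung. The groups were apart, with a 2.48-fold rise (1.31 ± 0.27, SE, limma adjusted p = 0.0298). Its 3 other probe sets stood at 0.90, 0.77 and 0.34 and did not pass, and the first 2 of these also had groups that did not overlap. At the other sites the brightest probe set stood at -0.43 (apex dependent), 0.15 (apex nondependent) and 0.31 (base dependent), which left 0.33 ± 0.13 over the 4 sites (adjusted p = 0.401).

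The other hnRNP proteins did not pass in either comparison. HNRNPD and HNRNPDL, close relatives of HNRNPAB known for binding AU-rich elements, had brightest probe sets at 0.67 ± 0.26 and 1.05 ± 0.35 (SE) at the base nondependent site. The 5 probe sets of HNRNPD ran from -0.26 to 0.74 (4 above 0), and the 5 of HNRNPDL from -0.32 to 1.05 (3 above 0). By the brightest probe set HNRNPK, which binds poly(C), stood there at 0.78 ± 0.31, HNRNPR at 0.90 ± 0.37, HNRNPA2B1 at 0.67 ± 0.53 and HNRNPM at 0.54 ± 0.46. The second probe set stood at -0.41 for HNRNPK, -0.17 for HNRNPM and 0.42 for HNRNPR. HNRNPA1, an hnRNP known for blocking exons, stood at 0.26 ± 0.41 (lowest of its 3 probe sets -0.19), HNRNPL at 0.24 ± 0.31 and HNRNPA0 at 0.21 ± 0.25. Below 0, the brightest HNRNPUL1 probe set stood at -1.19 ± 0.69 and its other at 0.34 ± 0.29. HNRNPUL2 read 5.65 to 6.12 in the injured and 6.28 to 7.39 in the control lung, a difference of -0.99 ± 0.53 that did not pass (adjusted p = 0.674). In all, 35 of 47 hnRNP probe sets were above 0 at this site with a median of 0.34, and 12 of 47 were higher with an unadjusted p under 0.05, against 0 lower. All tested probe sets gave 42% above 0, 4.38% higher and 4.03% lower.

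Among SR proteins SRSF1 rose at the base nondependent site. This founding member of the family binds purine-rich exonic enhancers. Its passing probe set read 9.68, 9.10 and 8.85 in the injured and 7.72, 8.0 and 7.57 in the control lung, groups that did not overlap. The rise was 2.73-fold (1.45 ± 0.31, SE, limma adjusted p = 0.043). The gene's brightest probe set read 10.79, 10.60 and 10.50 against 8.97, 9.48 and 9.54 and stood at 1.30 ± 0.30 (adjusted p = 0.0625). The 2 further probe sets, whose suffix x_at marks probes that can match other transcripts, stood at -0.37 and 0.26. Over the 4 sites the brightest probe set was higher in 3 of 3 dogs, by 0.53, 0.65 and 0.48, with a change of 0.55 ± 0.15 (adjusted p = 0.162).

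SRSF7, an SR protein with a zinc knuckle, rose at the base nondependent site by 1 of its 4 probe sets. That probe set, of the x_at type, read 8.54, 8.61 and 8.55 in the injured and 6.64, 7.02 and 7.31 in the control lung. The injured readings were nearly equal among the dogs and all above the control readings (2.99-fold, 1.58 ± 0.32, SE, limma adjusted p = 0.0259). The brightest probe set of SRSF7 stood at 0.41 ± 0.36 and the other 2 at 0.74 and -0.02, with overlapping groups, so that a change of the gene as a whole is uncertain.

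SRSF6 read 9.12, 8.37 and 8.87 in the injured and 6.87, 7.33 and 8.07 in the control lung at the base nondependent site. The groups were apart but the change of 1.36 ± 0.31 (SE) just missed the threshold (limma adjusted p = 0.0617). Its second probe set stood at 0.23. SRSF3, the smallest SR protein, stood at 0.78 ± 0.44, SRSF10, a repressor when dephosphorylated, at 0.34 ± 0.42, and SRSF5 at -0.12 ± 0.41, none of which passed. The probe sets of SRSF3 ran from -0.27 to 0.86, those of SRSF10 from 0.34 to 1.36 and those of SRSF5 from -0.33 to 0.26. In all 19 of 25 SR probe sets were above 0, with a median of 0.34, and 6 of 25 were higher with an unadjusted p under 0.05, against 0 lower. The shares of all tested probe sets were 42, 4.38 and 4.03%.

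**Figure D2:**
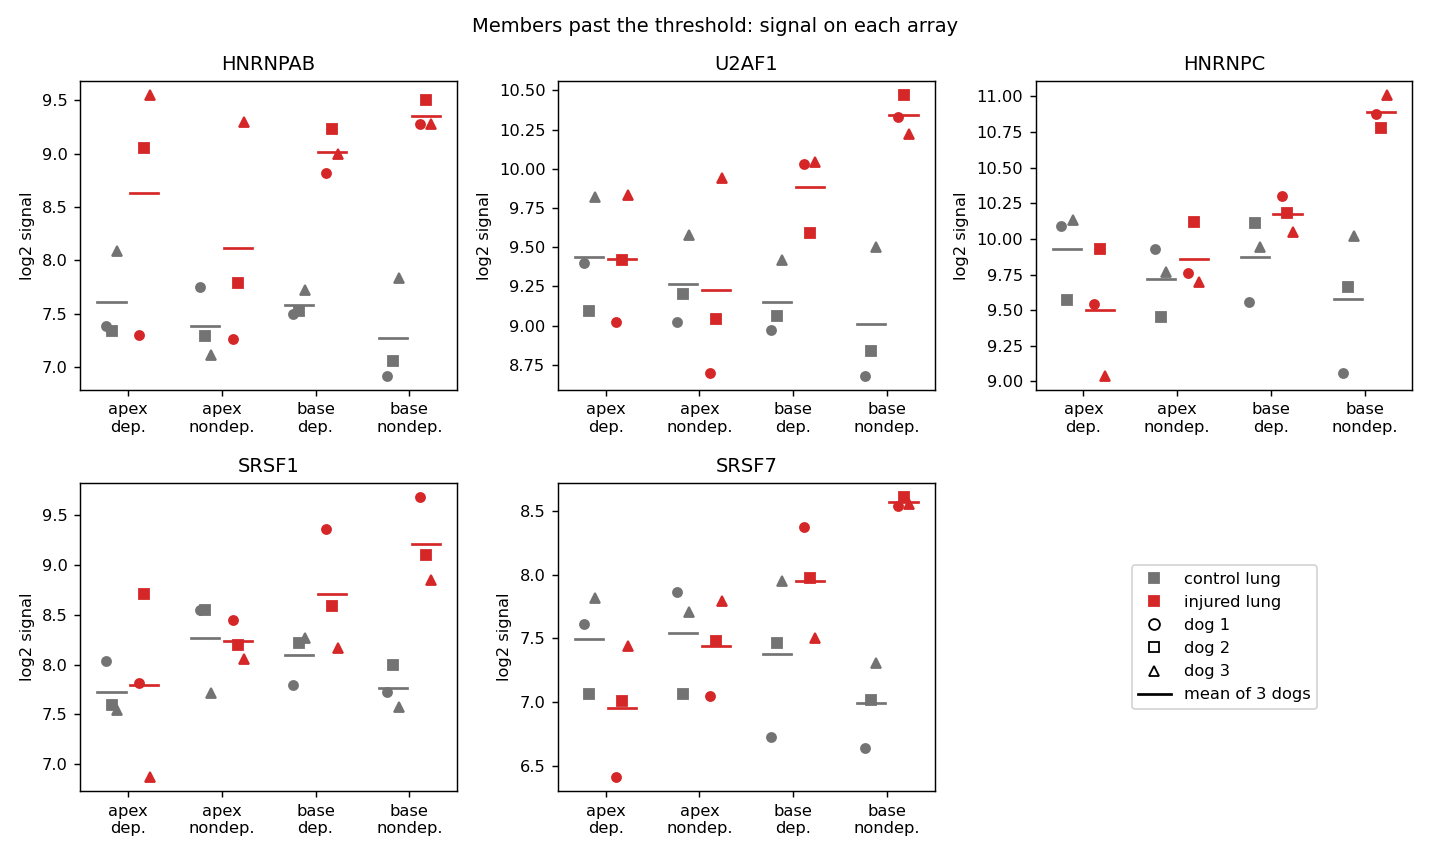
Log2 signal on each of the 24 arrays for the passing probe sets of HNRNPAB, U2AF1, HNRNPC, SRSF1 and SRSF7, by site; symbols mark the dogs, colours the lungs, and lines the mean of 3 dogs. At the base nondependent site the injured and control readings do not overlap in any of the 5 panels, while at both apical sites they overlap in all 5.

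U2AF1 is the small subunit of the factor that recognises the AG at the end of an intron, and U2AF2, its large partner, binds the pyrimidine tract before it. U2AF1 rose at the base nondependent site, with readings of 10.33, 10.47 and 10.22 in the injured and 8.68, 8.84 and 9.50 in the control lung. The groups were apart and the change was 1.33 ± 0.23 (SE), a 2.52-fold rise with a limma adjusted p of 0.00921. At the base dependent site the readings were 10.03, 9.59 and 10.04 against 8.97, 9.06 and 9.42, also apart, and the change of 0.73 ± 0.23 did not pass (adjusted p = 0.615). The apical changes were -0.02 and -0.04. Over the 4 sites U2AF1 was higher in 3 of 3 dogs, by 0.50, 0.58 and 0.43, at 0.50 ± 0.12 (adjusted p = 0.0855). U2AF2 did not pass at any site: at the base nondependent site its 3 probe sets stood at 0.13, -0.16 and 0.16.

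The SF3A and SF3B proteins belong to the U2 snRNP and hold the branch site of the intron. Of 13 probe sets 8 were above 0 at the base nondependent site (42% of all tested probe sets), with a median of 0.23. With an unadjusted p under 0.05, 1 of the 13 was higher, against 4.38% of all, so this class did not stand out by that count. SF3B1, the largest subunit, stood at 0.49 ± 0.45 (SE) by its brightest probe set, SF3A1 at -0.13 ± 0.20, SF3A3 at 0.09 ± 0.30 and SF3B4 at -0.25 ± 0.43, and none passed. SF3B5, the smallest subunit, read 9.17, 9.87 and 9.50 against 8.74, 8.63 and 8.36 (0.94 ± 0.24, limma adjusted p = 0.105), but it was called Present on 0 of the 3 injured and 3 of the 3 control arrays.

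The snRNP proteins include the Sm proteins, which form a ring on the spliceosomal RNAs, and proteins particular to the U1 or the U2 particle. In this class 11 of 16 probe sets were above 0 at the base nondependent site (42% of all tested probe sets), with a median of 0.45. With an unadjusted p under 0.05, 4 were higher (4.38% of all), but none passed. The Sm protein SNRPE read 9.76, 9.88 and 9.03 against 8.06, 8.58 and 8.79 (1.07 ± 0.26, SE, limma adjusted p = 0.0724), and SNRPD3 read 8.55, 8.94 and 8.62 against 7.62, 7.41 and 7.84 (1.08 ± 0.33, adjusted p = 0.22). Both sets of groups were apart, but the second probe set of SNRPE stood at -0.07. SNRPB, another Sm protein, stood at 0.39 by its brightest probe set and at 1.12 by the other, whereas SNRPD1 stood at -0.34 and 0.80. The U1 protein SNRPA stood at -0.20 ± 0.35. SNRPA1, a U2 protein, was higher over the 4 sites by 0.72, 0.84 and 0.32 in the 3 dogs (0.63 ± 0.18, adjusted p = 0.22), but its other probe sets stood at -0.05 and 0.12.

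The PRPF factors work in the U4/U6 and U5 particles and in the later catalytic steps. Of 13 probe sets 9 were above 0 at the base nondependent site (42% of all tested probe sets) with a median of 0.10. In this class 0 of 13 had an unadjusted p under 0.05, where all gave 4.38% higher and 4.03% lower. PRPF8, at the heart of the spliceosome, stood at 0.27 ± 0.28 (SE), PRPF19, a ubiquitin ligase of the spliceosome, at 0.10 ± 0.26, and PRPF31 at 0.13 ± 0.25 by its brightest probe set. PRPF4, a protein of the U4/U6 particle, was higher over the 4 sites by 0.54, 0.52 and 0.87 in the 3 dogs (0.64 ± 0.18, limma adjusted p = 0.206), with its second probe set at 0.52, and was called Present on 8 injured and 7 control arrays of 12 each.

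**Figure D3:**
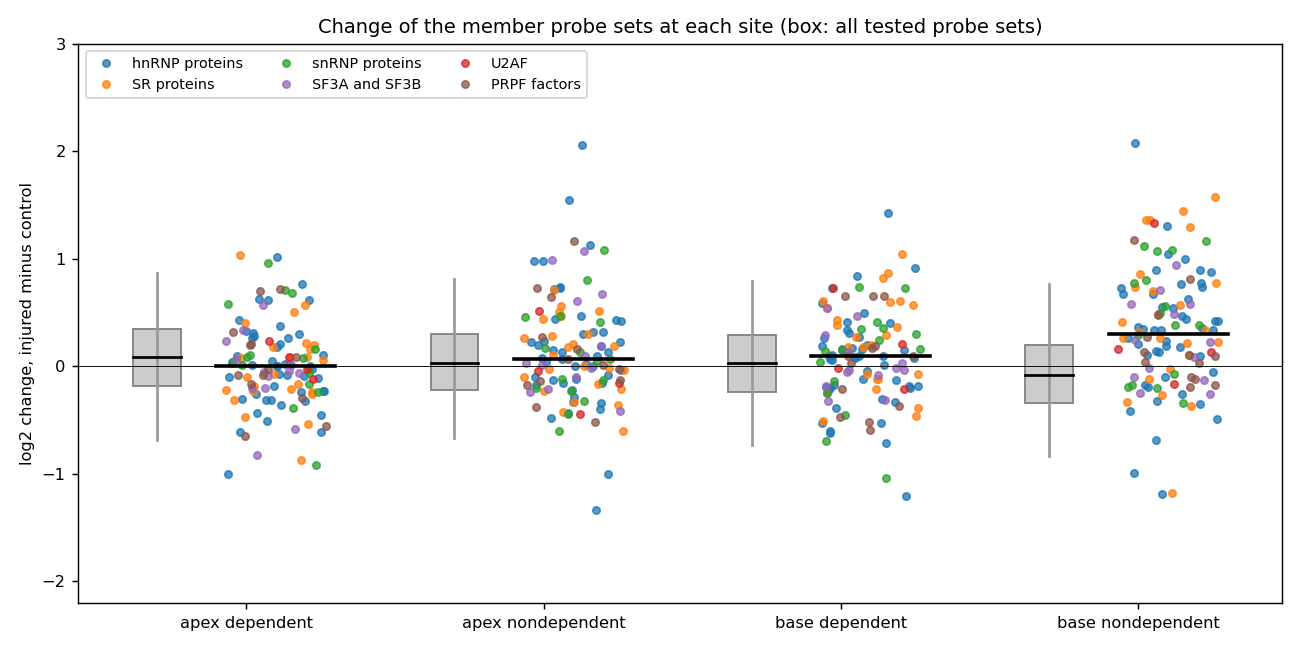
Log2 change, injured minus control lung, of each of the 118 tested member probe sets (points, coloured by role) at the 4 sites; black lines across the points are member medians, and the grey boxes give the median, quartiles and, as whiskers, the 5th to 95th percentiles of all 20034 tested probe sets. The member median is 0.31 at the base nondependent site, where that of all probe sets is -0.08, and between -0.00 and 0.10 at the other 3 sites.

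Beyond the 5 that passed, the members as a whole were shifted at the base nondependent site. A change above 0 was seen for 85 of 118, against 42% of all tested probe sets, and the dog medians were 0.48, 0.25 and 0.24, against -0.03, -0.18 and -0.00 for all. There, 24 members were higher with an unadjusted p under 0.05 and 0 were lower, where all tested probe sets gave 4.38 and 4.03%. The signal was higher in 3 of 3 dogs for 41 members, against 12.3% of all, and lower in 3 of 3 dogs for 7, against 19.3%. Injured and control readings did not overlap, with the injured lung higher, for 20 members (4.79% of all) and, with it lower, for 1 (6.74%), HNRNPUL2, named after its values were seen.

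The shift was described separately for well detected members. Of the 61 called Present on all 24 arrays, 54 were above 0 with a median of 0.44, and 20 were higher with an unadjusted p under 0.05, against 8.61% of all probe sets Present on 24 arrays. Of the other 57 members, 31 were above 0 with a median of 0.10, and 4 were higher with an unadjusted p under 0.05, against 2.81%. Taking the brightest probe set of each of the 56 genes, 44 were above 0 and 13 were higher with an unadjusted p under 0.05, against 4.60% of genes. Shares above 0 and medians are not given here for all probe sets split this way or for all genes. These counts above 0 and medians thus have no matched background. Probe sets of a gene did not always move together: of the 33 genes with several, 13 had all of them above 0, 2 had all below 0 and 18 were mixed.

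**Figure D4:**
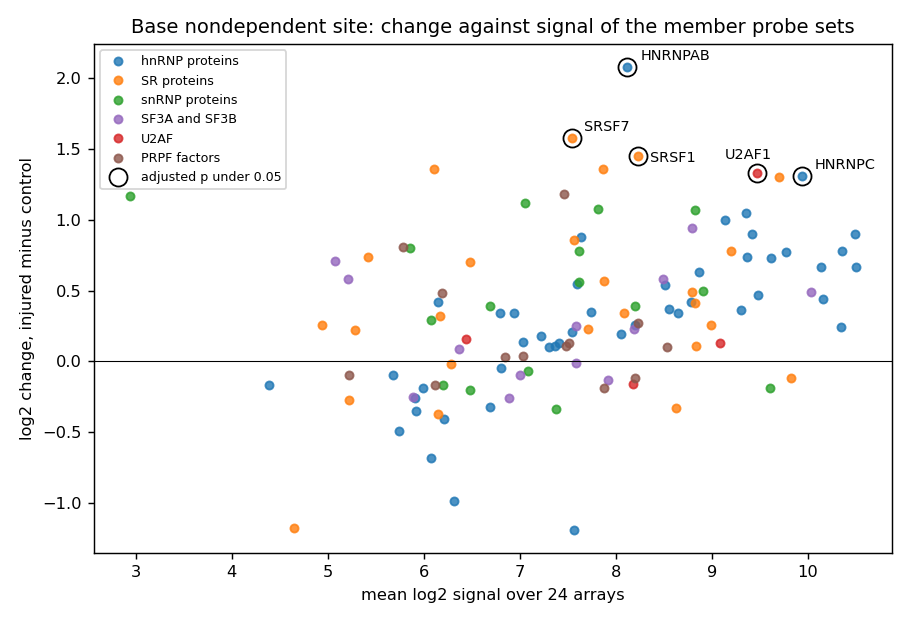
Log2 change at the base nondependent site, injured minus control lung, against the mean log2 signal over 24 arrays for each of the 118 tested member probe sets, coloured by role; circles mark the 5 with an adjusted p under 0.05. The circled members have changes between 1.31 and 2.08.

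The values at the other sites depended on which dogs and arrays were used, among them the arrays of dog 3 that stood apart. At the apex dependent site 3 were higher and 3 lower with an unadjusted p under 0.05 (4.07 and 2.87% of all). At the apex nondependent site 7 were higher and 0 lower (3.48 and 1.93%), and at the base dependent site 5 were higher and 2 lower (3.51 and 2.70%). Without those 3 arrays the counts were 5 and 0 at the apex dependent site (3.32 and 2.43% of all), 17 and 2 at the apex nondependent site (2.95 and 2.42%), and 11 and 0 at the base dependent site (3.06 and 2.71%). The member medians then were 0.05, 0.15 and 0.28, against 0.08, 0.03 and 0.01 for all, where all 24 arrays gave the members -0.00, 0.07 and 0.10. Leaving out 1 dog, the member median ran from -0.14 (without dog 2) to 0.08 (without dog 1) at the apex dependent site, from -0.06 (without dog 2) to 0.16 (without dog 1) at the apex nondependent site, and from -0.05 (without dog 1) to 0.27 (without dog 3) at the base dependent site. Taking the brightest probe set of each gene, the smallest p at the apex dependent site belonged to SRSF4, at -0.87 ± 0.27 (SE), and SNRPG, at -0.92 ± 0.32, and at the apex nondependent site to SNRPA1, at 1.08 ± 0.37. At the base dependent site HNRNPA1 stood at -1.21 ± 0.41, with -0.37, -0.94 and -2.32 in the 3 dogs, the last from an array that stood apart. None of these passed (lowest limma adjusted p 0.587, that of HNRNPAB at the base dependent site).

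The calls at the base nondependent site depended on which dogs and settings were used. Without dog 1 or without dog 2 limma called 0 members, and without dog 3 it called 5, with the array-wide counts of these 3 refits not given here. The direction did not turn under any of the 13 alternatives for the 5 passing members, with changes from 0.94 to 2.40. RNA integrity moved with the injured lung here in dogs 1 and 2, most in dog 1, while in dog 3 its measures differed in sign. For GAPDH the gap between 3' and 5' probe sets (log2), injured minus control, was 1.35, 0.41 and 0.09 in dogs 1, 2 and 3. For ACTB the gap was 1.03, 0.49 and -0.47. With both measures as covariates limma called 0 members, and the member median was 0.17 in place of 0.31, against -0.07 for all. In that fit 16 members were higher with an unadjusted p under 0.05 and 1 was lower, against 3.15 and 2.95% of all.

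Cell type markers gave 0 limma calls at this site and over the 4 sites. In that region markers of alveolar type 2 cells lay at a median of -0.44 (1 of 5 above 0), type 1 cells at -0.29 (3 of 7), endothelium at -0.35 (2 of 7) and airway epithelium at -0.17 (0 of 3). Leukocyte markers lay at 0.07 (5 of 7), red cell markers at 0.08 (1 of 2), smooth muscle and fibroblast markers at -0.08 (2 of 5) and markers of dividing cells at -0.25 (1 of 4). The summed signal of the leukocyte markers ranged from 825 to 1278 in the injured and from 798 to 1288 in the control lung, and that of type 2 cell markers from 1709 to 4473 and from 3239 to 5589. Their part in the member values was not tested, and in pieces of tissue fewer cells of a type and less RNA per cell cannot be told apart.

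A further comparison asked whether members differ by region within a lung. Comparisons within the injured lung use the base nondependent arrays again, so they are not independent of the results at that site. In the injured lung no member passed between base and apex, but 23 were higher at the base with an unadjusted p under 0.05 and 0 were lower, against 4.31 and 4.72% of all, and limma called 0.0349% of all probe sets higher and 0% lower. The median member difference was 0.17, against -0.07 for all, with dog medians of 0.38, 0.13 and 0.21. Ordered by p over the brightest probe set of each gene, U2AF1 came first with 0.79 ± 0.17 (SE, adjusted p = 0.0773), followed by HNRNPC at 0.85 ± 0.19 (adjusted p = 0.0949), SRSF1 at 0.88 ± 0.21 and SNRPE at 0.71 ± 0.18. The x_at probe set of SRSF7, not its brightest, stood at 1.06 ± 0.22 (adjusted p = 0.078). Base and apex readings of the injured lung did not overlap for 1 member, the brightest SRSF1 probe set, against 0.115% of all. Without the 3 arrays that stood apart limma called 2 members and without dog 3 it called 3, among them U2AF1 in both (0.97, adjusted p = 0.0241, and 1.06, adjusted p = 0.0199). In both refits the apical readings of the injured lung come from dogs 1 and 2 alone. Their array-wide counts are not given here, so the member counts cannot be set against a share of all.

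Between base and apex of the control lung 5 members were higher and 2 lower with an unadjusted p under 0.05 (2.98 and 2.18% of all), and limma called 0. The median was 0.02, as for all tested probe sets. Without dog 1 the counts were 13 and 0 (2.30 and 1.46% of all) and the member median was 0.17, and without dog 2 it was -0.13. U2AF1 stood there at -0.27 ± 0.17 (SE), SNRPE at -0.41 ± 0.18 and HNRNPC at -0.10 ± 0.19. SNRPA1, at 0.76 ± 0.26, had the smallest p among genes (adjusted p = 0.945).

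The difference itself, the injury effect at the base minus that at the apex, was tested as an interaction and limma called 0 members and 0 of all probe sets. With an unadjusted p under 0.05, 19 members had a higher injured minus control change at the base and 2 a higher one at the apex. All tested probe sets gave 3.62 and 4.64%. The comparison is signed, so a fall at the apex also counts on the base side, and a fall at the base on the apex side. U2AF1 stood at 1.06 ± 0.23 (SE, adjusted p = 0.19), with 1.71, 1.00 and 0.48 in the 3 dogs, SNRPE at 1.12 ± 0.26 (adjusted p = 0.19), HNRNPC at 0.95 ± 0.27 and SRSF6 at 1.05 ± 0.31. The member median was 0.09, and it was 0.16 without the 3 arrays that stood apart and -0.03 without dog 1. The dog medians over the members were 0.60, -0.05 and 0.06, so that the median was far above 0 in dog 1 alone. Without dog 1, 4 members were on the base side and 5 on the apex side with an unadjusted p under 0.05, against 1.77 and 3.42% of all. Without the 3 arrays that stood apart limma called 2 members, 1 of them U2AF1 (1.24, adjusted p = 0.0479). That refit has no injured apical array of dog 3, so its injured apex rests on dogs 1 and 2. Its array-wide count is not given here.

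Between the dependent and the nondependent part of the injured lung limma called 0 members and 0 of all probe sets, while 19 members were lower in the dependent part with an unadjusted p under 0.05 and 0 were higher (2.63 and 2.65% of all). The median was -0.20, against 0.04 for all, with dog medians of -0.13, -0.15 and -0.44. SRSF6 stood at -0.73 ± 0.22 (SE), with -0.63, -0.85 and -0.72 in the 3 dogs, HNRNPC at -0.54 ± 0.19, HNRNPH1 at -1.11 ± 0.40 and SRSF3 at -0.83 ± 0.31. Of dog 3's injured arrays, both dependent ones and 1 of the nondependent ones stood apart. Without those 3 arrays 5 members were lower with an unadjusted p under 0.05 (1.79% of all) and the member median was -0.08, and without dog 3 there were 2 (1.57%) and the median was -0.11. In the control lung 1 member was higher and 2 were lower (1.64 and 3.15% of all), with 0 called and a median of -0.01.

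The matching interaction, the injury effect in the dependent minus that in the nondependent parts, gave 0 limma calls among members and among all probe sets. With an unadjusted p under 0.05, 0 members were on the dependent and 7 on the nondependent side, against 3.47 and 1.96% of all, and 1 on each side without the 3 arrays (3.02 and 1.84%). The member median was -0.18 with all arrays and -0.09 without the 3. HNRNPC stood at -0.79 ± 0.27 (SE), SNRPD2 at -0.81 ± 0.32 and HNRNPF at -0.71 ± 0.31, with an adjusted p of 0.851 for each.

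**Figure D5:**
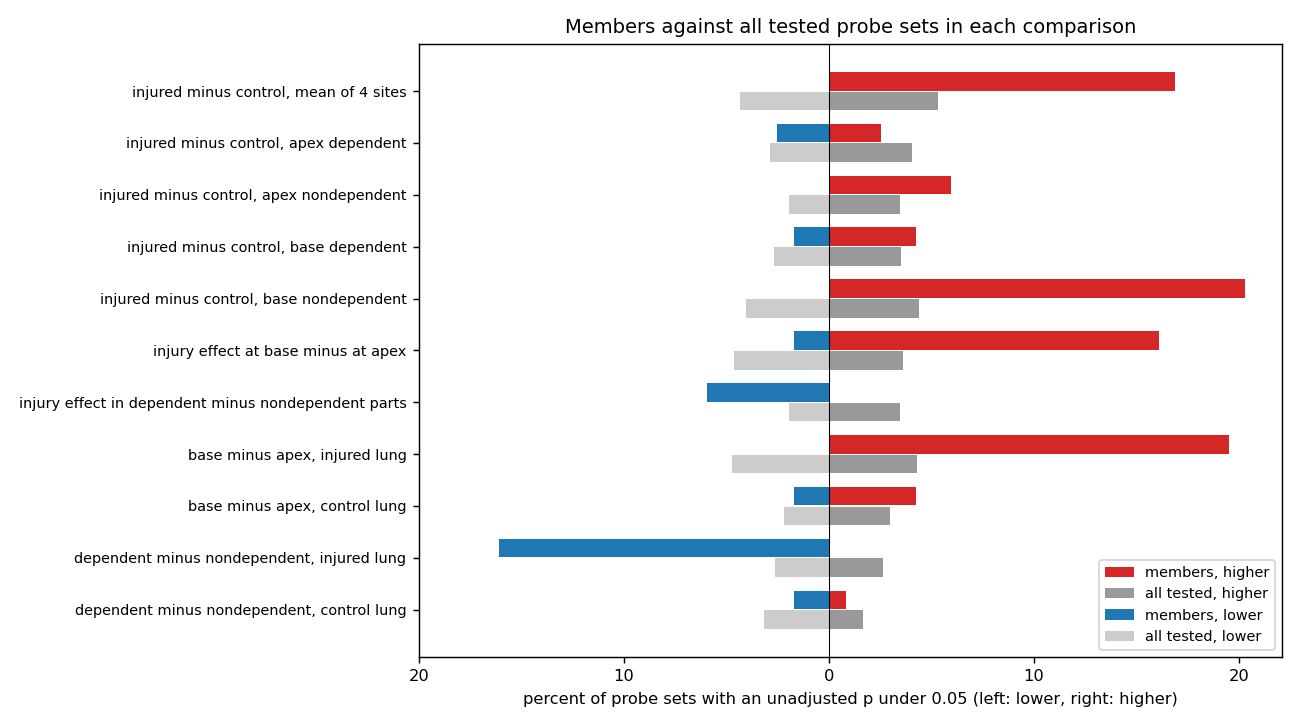
Percent of the 118 member probe sets (coloured bars) and of all 20034 tested probe sets (grey bars) with an unadjusted p under 0.05 in each of the 11 comparisons, higher to the right and lower to the left. The member bars are longest to the right at the base nondependent site (24 members) and between base and apex of the injured lung (23), and longest to the left between dependent and nondependent parts of the injured lung (19). These comparisons all use the injured base nondependent arrays, so their bars are not independent.

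Other genes of the splicing pathway, listed by role without regard to prefix, gave 0 limma calls in each of the 11 comparisons. Of 110 listed genes 86 were tested by their brightest probe set. Over the 4 sites 56 were above 0, with a median of 0.06, where all genes gave 53.1% and a median of 0.02. With an unadjusted p under 0.05, 6 were higher and 6 lower, against 5.09 and 4.89% of all genes. PRMT5, which methylates Sm proteins, stood at 0.66 ± 0.20 (SE), and the helicase DDX39A at 0.42 ± 0.14. The splicing regulators RBFOX2 and CELF2 stood at -0.41 ± 0.14 and -0.47 ± 0.16.

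At the base nondependent site 59 of the 86 were above 0, with a median of 0.20, where all tested probe sets gave 42% above 0. With an unadjusted p under 0.05, 13 were higher and 0 lower, against 4.60 and 4.07% of genes. SYNCRIP, an hnRNP protein named outside the HNRNP series, stood at 1.01 ± 0.30 (SE), with its 4 other probe sets at 1.05, 1.93, 1.31 and 1.53. SAP18 stood at 1.02 ± 0.33, with its others at -0.39 and -0.32, and PUF60, which aids U2AF at the 3' splice site, at 0.73 ± 0.24. By list, 23 of 31 splicing regulators were above 0 there, 22 of 33 further spliceosome proteins, 4 of 6 exon junction proteins, 5 of 9 snRNP assembly factors and 5 of 7 kinases of SR proteins. Over the 4 sites these counts were 18, 26, 5, 6 and 1.

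The mean of the 4 sites and the base nondependent site share arrays, so their lists are not independent. With an unadjusted p under 0.05, 20 members were higher in the first and 24 in the second, and 14 were in both, 70% of the first list and 58.3% of the second. Over the 4 sites 0 members were lower by that measure, where all tested probe sets gave 5.34% higher and 4.36% lower. The signal was higher in 3 of 3 dogs for 32 members, against 17.4% of all, and lower for 4, against 12.3%. The dog medians were 0.18, 0.28 and -0.02, against 0.00, 0.02 and 0.07 for all. Without the 3 arrays that stood apart 32 members were higher with an unadjusted p under 0.05, against 4.68% of all, and without dog 2 there were 9, against 3.75%.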

How the data were processed

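Dog lung RNA was measured on 24 human Affymetrix arrays. The deposited intensity values are probe set signals with a detection call, per the file headers; their 2% trimmed mean was 149.94 to 149.95 on every array, so they were used as deposited, with a floor of 0.1 before log2. Depth has no counterpart on arrays, and the number of arrays limits the precision. Probe sets were named through GEO's platform annotation. limma 3.58.1 in R 4.3.3 was fitted to 20034 probe sets Present on at least 6 arrays, with 8 groups, the dog as a block and an intensity trend, and p-values were adjusted by Benjamini-Hochberg with a threshold of 0.05. The dog number in the labels pairs the samples, since they come from the same animal; arrays of 1 dog deviated from their group means together (median correlation 0.236, against -0.136 for arrays of different dogs). The fit takes the 4 pieces of a lung as units, whereas a whole lung was lavaged. Named are the called members, the genes with the smallest p by their brightest probe set (12 for the mean of 4 sites, 8 for the base nondependent site, 4 elsewhere), the highest, lowest and middle member of a role, and a list of well known members. The members and lists were chosen with earlier results of these data known. The fit was tested on simulated data with independent noise on each array. That test cannot show whether the pieces of a lung may be taken as units. The 13 alternatives covered normalization, filters, the block, RNA integrity, the trend, outlying arrays and each dog left out.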

Additional observations from a re-analysis of the deposited data

How the results depend on the processing

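The fit without the dog as a replicate block called 0 members at the base nondependent site, where the fit with the block called 5. Other counts there were 1 with quantile normalization, 1 on means per dog, 0 with the 3' minus 5' signals as covariates, 8 without the 3 arrays of dog 3 that stood apart, 1 with no intensity trend, and 0 to 5 leaving out each dog (0 without dog 1, 0 without dog 2, 5 without dog 3). Over the mean of 4 sites, where 1 member was called, the count was 0 on means per dog, 2 with the lung of a dog as a random block and 0 to 1 leaving out each dog (0 without dog 2). The injury effect at the base minus the apex had 2 calls and the base minus apex comparison of the injured lung had 2 calls without those 3 arrays, against 0, and the latter had 0 to 3 leaving out each dog (3 without dog 3). For named members, 709 of 754 settings kept the direction and side of the threshold, 37 lost the call, 8 gained it and 0 reversed. Most of these settings belong to results that had not passed, which had no call to lose. Of the 13 alternatives, HNRNPAB passed in 11 over the 4 sites. At the base nondependent site HNRNPAB and U2AF1 passed in 7 of 13, HNRNPC and SRSF7 in 6 and SRSF1 in 4. Apart from the alternatives that leave out arrays or dogs, the cause of these moves was not tested. Over all 20034 probe sets the count called at the base nondependent site went from 81 to 0 without the block, 32 on means per dog, 42 with quantile normalization, 9 with the covariates, 38 with no trend and 151 without the 3 arrays. Array-wide counts of the other refits are not given here, so the member counts in those cannot be set against a share. With 3 dogs, and human probes read with dog RNA, small changes of dim probe sets could not be resolved.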
